A study of Homo sapiens with 12 samples.

Results

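This report follows 48 genes of the interferon response and of antigen presentation by major histocompatibility complex (MHC) class I, out of 60664 genes in the count table, in the human triple-negative breast cancer line MDA-MB-231. The genes were chosen by symbol, with earlier results of these data known. The RNA-seq data comprise 12 libraries in 3 groups of 4. WT normoxia denotes untreated wild type cells, WT hypoxia denotes wild type cells kept in hypoxia for 24 hr, which according to the methods was a chamber at 1% O2, and CCAR2 KO denotes untreated cells of genotype CCAR2-/-. CCAR2 encodes DBC1, a nuclear protein that binds and inhibits the deacetylase SIRT1. No CCAR2 KO cells in hypoxia were analysed here. The methods describe a lentiviral Cas9 vector with 1 guide against CCAR2. They do not state whether the KO cells were a clone or a pool, or whether the WT cells carried a control vector. Loss of CCAR2 and delivery of the vector therefore cannot be told apart. Nothing in the labels says whether replicates came from separate cultures, and p-values measure only the spread between these libraries.

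Type I and type III interferons bind receptors at the cell surface and act through JAK kinases to assemble a complex of STAT proteins and IRF9, which binds the interferon-stimulated response element (ISRE) in the promoters of its targets. Type II interferon acts mainly through a STAT dimer at the gamma-activated site (GAS). The targets include sensors of viral RNA, enzymes that act on RNA, proteins that block viral entry or translation, and the machinery that cuts proteins to peptides, carries the peptides into the endoplasmic reticulum and loads them on MHC class I. Tumour cells can express part of this set without added interferon.

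The deposited values sum to between 68599412 and 213743693 per library and are estimates, and the sums do not count reads. The sums ran from 153904088 to 213743693 in WT normoxia, 76384973 to 195621872 in hypoxia and 68599412 to 152328450 in KO. Every KO sum was thus below every WT normoxia sum, and the part of this in the KO result was not tested. CCAR2 itself was at 144 to 151 CPM (counts scaled to library size with TMM factors) in the WT normoxia libraries, 143 to 154 CPM in hypoxia and 54.7 to 61.3 CPM in the KO libraries. CA9, a target of the hypoxia-inducible factor, was at 4.43 to 5.40 CPM in the hypoxia libraries and at no more than 0.195 CPM elsewhere. The mesenchymal markers VIM and CD44 were high in every library and ESR1, PGR and CDH1 were each below 1 CPM on average in every group. The mesenchymal marker SPARC was low, at 1.23 to 1.64 CPM on average, and the epithelial marker EPCAM was at 12.7 to 17.5 CPM. VIM is an intermediate filament of mesenchymal cells, and ESR1 and PGR encode the hormone receptors that triple-negative tumours lack. Library 2 of WT hypoxia correlated least with its own group, with a mean r of 0.960 across genes.

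Promoter sequences are shown because binding of the interferon-activated complexes is defined by short motifs. The RefSeq promoter table (GRCh38.p14, 250 bases before and 50 bases after each start) held promoters for 37 of the 48 members. The ISRE core was searched as GAAANNGAAA on both strands, and the GAS as TTCNNNGAA, which reads the same on both strands. An ISRE core match was present in 26 of 37 members with a promoter (70.3%), beside 1195 of 27305 genes of the whole table (4.38%). A GAS match was present in 11 of 37 members (29.7%), beside 9.38% of all genes. The 2 motifs can share bases, and matches overlapped in 5 member promoters. The set is made of known interferon targets, so these shares are a description. Among members called higher in CCAR2 KO cells (adjusted p under 0.05, log2 fold change of 0.5 or more), 14 of the 18 with a promoter held an ISRE core match (77.8%), and among the other members 12 of 19 did (63.2%).

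The following stretches run 5′ to 3′ on the strand of the gene, lie upstream of the RefSeq start and carry the ISRE core matches in capitals. The first 7 belong to members that rose in CCAR2 KO cells and the last 4 to members that were not called there. Only members with a match are shown. OAS1, HLA-C, IRF1 and SAMD9L were also called higher in KO and had no ISRE core match in their RefSeq promoters. Further matches in a promoter can lie outside the stretch shown.
IFIT1, chr10:89392482-89392554 (+ strand): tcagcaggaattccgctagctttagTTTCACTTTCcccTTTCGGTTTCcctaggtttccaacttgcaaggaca
IFIT3, chr10:89327850-89327909 (+ strand): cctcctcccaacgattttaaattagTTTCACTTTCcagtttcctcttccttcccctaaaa
IFI44L, chr1:78620350-78620409 (+ strand): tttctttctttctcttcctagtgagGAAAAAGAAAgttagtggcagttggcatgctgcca
RSAD2, chr2:6877607-6877666 (+ strand): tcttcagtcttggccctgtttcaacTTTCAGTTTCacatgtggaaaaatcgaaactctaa
IFIH1, chr2:162318685-162318730 (- strand): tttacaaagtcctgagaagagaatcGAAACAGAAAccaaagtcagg
SAMD9, chr7:93118081-93118140 (- strand): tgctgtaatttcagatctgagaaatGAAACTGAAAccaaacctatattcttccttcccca
IFI27, chr14:94110603-94110675 (+ strand): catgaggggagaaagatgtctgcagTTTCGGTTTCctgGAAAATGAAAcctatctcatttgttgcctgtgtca
ISG15, chr1:1013359-1013424 (+ strand): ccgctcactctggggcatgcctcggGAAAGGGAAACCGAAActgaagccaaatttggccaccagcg
BST2, chr19:17405720-17405785 (- strand): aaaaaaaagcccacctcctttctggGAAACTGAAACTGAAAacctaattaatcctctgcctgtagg
B2M, chr15:44711348-44711413 (+ strand): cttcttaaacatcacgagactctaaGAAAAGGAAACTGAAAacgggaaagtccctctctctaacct
IFI6, chr1:27672251-27672332 (- strand): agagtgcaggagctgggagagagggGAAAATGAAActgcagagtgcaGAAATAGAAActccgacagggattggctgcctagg
In IFIT1, IFI27 and IFI6 a pair of matches lie close together. ISG15, BST2 and B2M each carry 2 matches that share bases in 1 run. Such a match is a string of letters and not a measured binding site.

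In WT normoxia the members spanned a wide range of levels per length. Levels between genes were compared as CPM per kb of merged exons in GENCODE v29. ISG15, the ubiquitin-like protein that is conjugated to other proteins, was highest, at 113 ± 10.03 CPM per kb (SD, n = 4). IFITM3, which blocks fusion of viral envelopes, followed at 97.6 ± 6.30, and the ranges of these 2 genes overlapped. BST2 (tetherin, which retains budding virus at the membrane) was at 63.9 ± 5.56, B2M (the light chain of MHC class I) at 33.4 ± 1.43 and IFITM1 at 22.4 ± 1.52 CPM per kb. BST2 and B2M did not overlap with the genes next to them in this order. IFIT3, IFITM2 and IFI44 were between 16.7 and 20.6 CPM per kb on average. At the lower end, HLA-F, OAS1 and RSAD2 were below 0.04 CPM per kb on average and their ranges overlapped, and CMPK2 was listed at 0 in 2 of the 4 libraries. The plot of levels in WT normoxia shows the whole order.

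**Figure D1:**
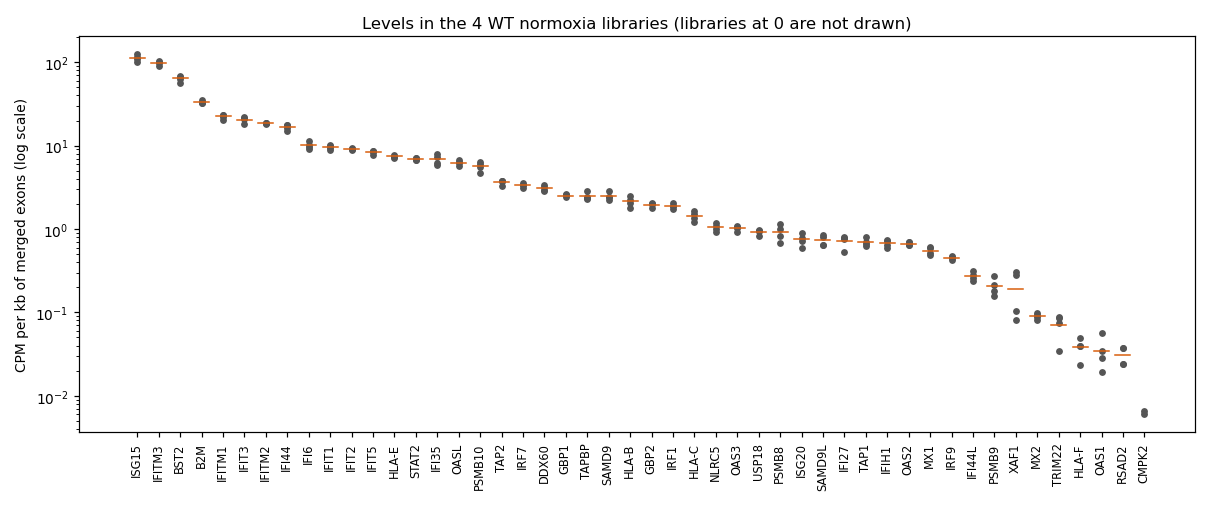
Levels of the 48 members in WT normoxia, in CPM per kb of merged exons on a log axis, with 1 point per library (n = 4), an orange line at the mean where every library was above 0, and genes ordered by their mean. ISG15, IFITM3 and BST2 lie above 50 CPM per kb in all 4 libraries.

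The members were compared with WT normoxia under hypoxia and in CCAR2 KO cells, and the 2 comparisons share the WT normoxia libraries. All adjusted p-values were obtained with edgeR (quasi-likelihood test) and the Benjamini-Hochberg method over all genes tested, and a gene was called where this was under 0.05 and the log2 fold change was 0.5 or more in size. Log2 fold changes are given with their standard error. CMPK2 was too low to be tested, which leaves 47 members. Of the 48 members, 11 share at least 20 exon bases with another gene model on the same strand in GENCODE v29, among them HLA-C, IFIT2, GBP2, TRIM22 and IRF9, and 12 with one on the other strand, so that reads of those genes may be mixed with a neighbour's.

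In CCAR2 KO cells, 24 of the 47 members rose, 0 fell and the other 23 did not pass the call rule. Of all 21410 genes tested, 6.73% were called higher and 2.94% lower. Because the members were chosen with earlier results of these data known, the counts of members beside these shares are a description. Neither DESeq2 nor limma-voom called a member lower, and 0 members were lower at an unadjusted p under 0.05. The median log2 fold change of the members was 0.58, and that of all genes tested 0.0090. The libraries of the KO and WT normoxia groups did not overlap for 36 members, all of them higher in KO, where 15.6% of all genes did so upwards and 15.2% downwards. With the adjusted p alone, 35 members were higher and 0 lower, beside 14.9% and 15.4% of all genes. At an unadjusted p under 0.05 the members numbered 37 higher and 0 lower, beside 19.6% and 19.8%. In bulk RNA, a change in the number of expressing cells and a change in RNA per cell cannot be told apart. Exact permutation of 4 against 4 libraries cannot give a p below 0.0286.

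Under hypoxia, 2 members were called higher and 7 lower, with 38 not called. The count of 2 became 1 without library 1 or 4 of WT normoxia or library 4 of WT hypoxia. Of all 21776 genes tested, 5.83% were called higher and 1.43% lower. The members' median log2 fold change was 0.0069, and that of all genes 0.0113. The hypoxia and WT normoxia libraries did not overlap for 9 members upwards and 7 downwards, beside 13.7% and 12.7% of all genes. With the adjusted p alone the members numbered 7 higher and 11 lower, beside 11.6% and 12% of all genes, and at an unadjusted p under 0.05 they numbered 9 and 13, beside 17.1% and 18.2%. All 7 members that fell under hypoxia were also called higher in KO, 1 member rose in both comparisons, 1 rose under hypoxia alone, 16 were called in KO alone and 22 in neither. Since the WT normoxia libraries enter both comparisons, these counts are given side by side and not as a relation. The same combinations were not counted over all genes, so no background share stands beside them. Of the 7 members lower under hypoxia, OASL, SAMD9L and IFI44L lost that call in some alternatives, as did IRF9 and IFI27, the 2 called higher.

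**Figure D2:**
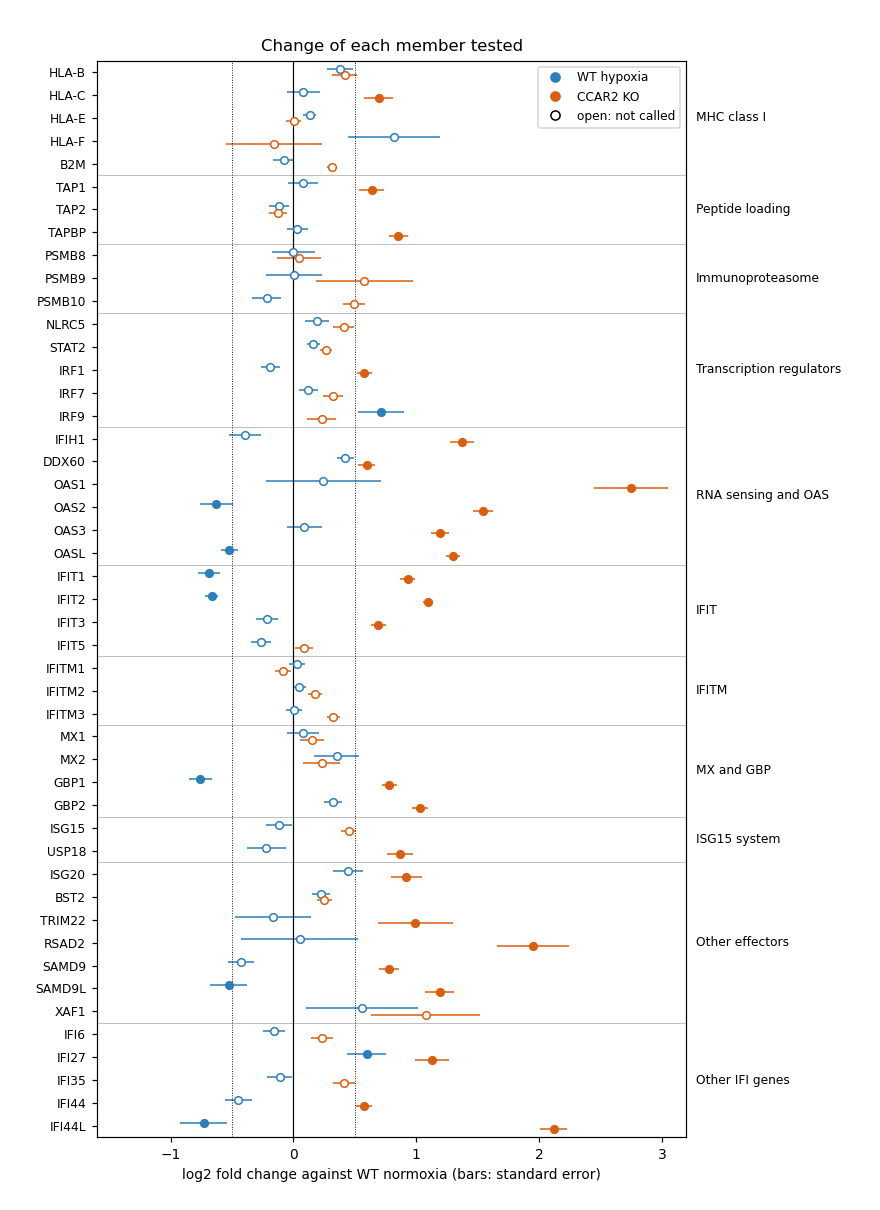
Log2 fold change against WT normoxia of the 47 members tested, by role, for WT hypoxia (blue) and CCAR2 KO cells (orange), with standard errors as bars, dotted lines at -0.5 and 0.5, and filled points for called genes. OAS1, IFI44L, RSAD2 and OAS2 lie farthest to the right in KO cells, and 7 members are filled to the left under hypoxia.

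In KO, the RNA sensors and the OAS enzymes had the highest median log2 fold change of the roles, 1.34. All 6 members of this group were called higher in KO, and OAS2 and OASL were called lower under hypoxia. OAS1, OAS2 and OAS3 make 2′-5′ oligoadenylates on double-stranded RNA, which activate the nuclease RNase L, and OASL is a related protein that enhances RNA sensing. OAS1 was at 0.139, 0.279, 0.0958 and 0.170 CPM in WT normoxia, 0.259, 0.0980, 0.140 and 0.309 CPM in hypoxia and 0.941, 1.18, 1.34 and 1.13 CPM in KO. The 4 KO libraries stood above all others, with a log2 fold change of 2.75 ± 0.30 and adjusted p = 2.85e-05, while the WT groups overlapped. OAS2 was at 4.01, 4.36, 4.02 and 4.36 CPM in WT normoxia, 3.24, 3.02, 2.41 and 2.27 CPM in hypoxia and 13.4, 12.5, 11.4 and 11.6 CPM in KO. The 3 groups did not overlap, and the log2 fold change was -0.63 ± 0.13 under hypoxia (adjusted p = 0.00643) and 1.54 ± 0.08 in KO (adjusted p = 6.92e-08).

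OASL ran in the same order, at 20.2, 22.6, 23.6 and 21.6 CPM in WT normoxia, 14.8, 17, 14.5 and 15.5 CPM in hypoxia and 51.4, 54.2, 55.9 and 55.6 CPM in KO. Its change was -0.52 ± 0.07 under hypoxia, just past the limit of 0.5, and 1.30 ± 0.06 in KO. The OASL call under hypoxia was lost without library 3 of WT normoxia (log2 fold change -0.49, adjusted p = 0.00371) or of WT hypoxia (log2 fold change -0.49, adjusted p = 0.0032), and with upper-quartile scaling (log2 fold change -0.47, adjusted p = 0.00105). OAS3 was at 8.59, 7.62, 8.82 and 8.96 CPM in WT normoxia, 9.54, 6.24, 9.86 and 10.7 CPM in hypoxia and 19.1, 18.4, 19.8 and 20.6 CPM in KO. Only the KO libraries stood apart (log2 fold change of 1.19 ± 0.07 and adjusted p = 1.65e-07). IFIH1, which encodes the double-stranded RNA sensor MDA5, was at 3.32, 3.01, 3.68 and 3.82 CPM in WT normoxia, 3.13, 2.44, 2.51 and 2.52 CPM in hypoxia and 8.97, 8.82, 9.63 and 8.49 CPM in KO. It rose in KO with a log2 fold change of 1.38 ± 0.10 and adjusted p = 6.82e-07. Its hypoxia value of -0.39 ± 0.13 was short of the fold limit (adjusted p = 0.0477). DDX60, a helicase of the same pathway, rose in KO from 20.9 ± 1.61 to 31.7 ± 1.74 CPM (SD, n = 4), with a change of 0.60 ± 0.07. In hypoxia it was at 28.3 ± 1.64 CPM, a change of 0.42 ± 0.07 that was not called on size although the libraries did not overlap, and that was called with each library's trend on GC content removed (0.58).

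**Figure D3:**
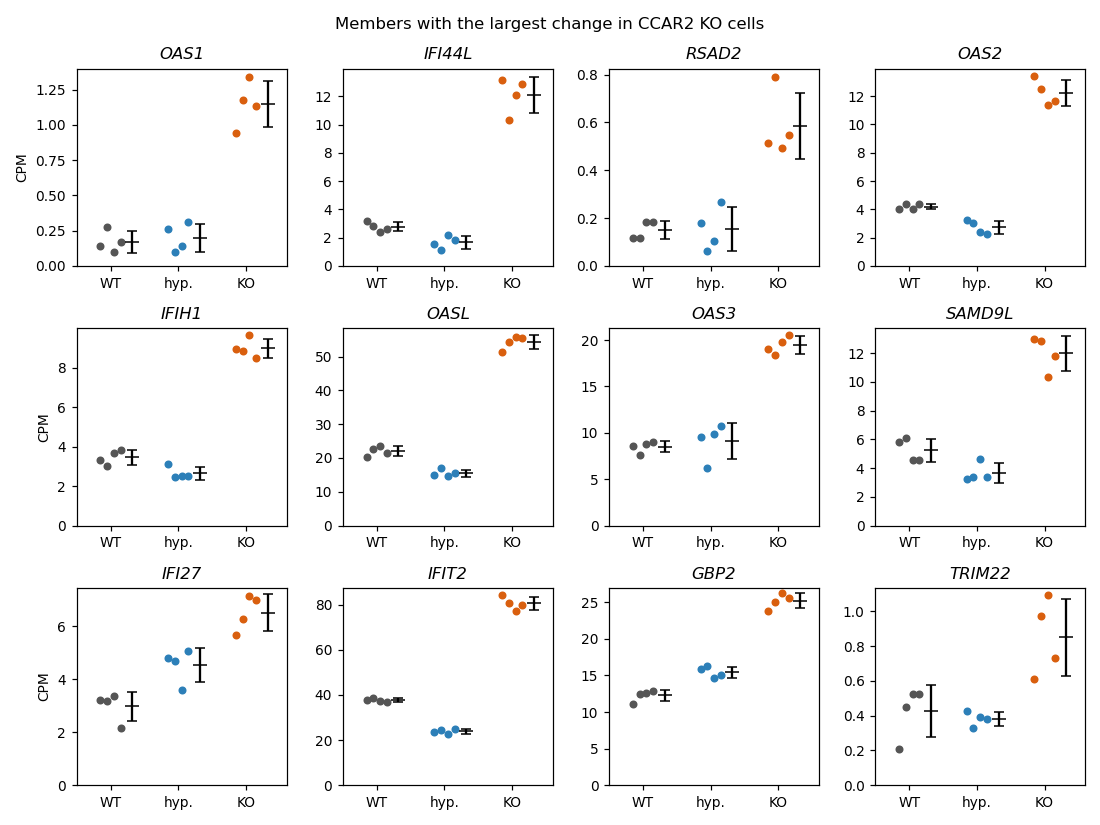
CPM of 12 members with the largest absolute log2 fold change in CCAR2 KO cells among called members averaging 20 counts or more, with 1 point per library in replicate order for WT normoxia (WT), WT hypoxia (hyp.) and CCAR2 KO (KO), and the mean with SD as a bar beside each group (n = 4, axes start at 0). In each panel the 4 KO libraries lie above the 4 WT normoxia libraries.

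Of the IFIT family, which binds viral RNA and blocks its translation, IFIT1, IFIT2 and IFIT3 rose in KO, and IFIT1 and IFIT2 fell under hypoxia. IFIT2 was at 37.8, 38.6, 37.4 and 36.7 CPM in WT normoxia, 23.6, 24.5, 22.6 and 24.8 CPM in hypoxia and 84.4, 80.7, 77.2 and 79.99 CPM in KO. The 3 groups were well separated, and the changes were -0.66 ± 0.05 under hypoxia (adjusted p = 1.43e-05) and 1.10 ± 0.04 in KO (adjusted p = 7.14e-09). IFIT1 was at 46, 46.9, 43.7 and 41.2 CPM in WT normoxia, 25.4, 32.9, 24.9 and 27.9 CPM in hypoxia and 91.3, 89.7, 76.6 and 81.6 CPM in KO. Its log2 fold change was -0.69 ± 0.09 under hypoxia and 0.93 ± 0.06 in KO, with no overlap in either comparison. The IFIT3 level was 54.3 ± 4.39 CPM in WT normoxia, 47 ± 6.36 in hypoxia and 87.6 ± 5.08 in KO (SD, n = 4), and was called in KO alone (log2 fold change of 0.69 ± 0.06 and adjusted p = 4.43e-06). IFIT5 was not called, at -0.26 ± 0.08 under hypoxia and 0.09 ± 0.07 in KO.

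The IFITM genes, which are among the most abundant members, were not called in either comparison. IFITM3 was at 120.0, 139.7, 135 and 131 CPM in WT normoxia, 132, 143, 122 and 136 CPM in hypoxia and 159, 165, 176 and 159.6 CPM in KO. The KO libraries lay above WT without overlap, but the change of 0.33 ± 0.05 was below the size limit. IFITM1 was at 21.9, 25.4, 24 and 25.3 CPM in WT normoxia, 24.5, 26.4, 23.1 and 25.3 CPM in hypoxia and 24.6, 21.2, 22.5 and 22.9 CPM in KO, and the groups overlapped. For IFITM1 in KO the 95% interval of the log2 fold change was -0.23 to 0.06. IFITM2 changed by 0.18 ± 0.05 in KO. These genes resemble each other, and the IFITM1 and IFITM2 gene models share exon bases, so that reads may be divided between them.

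Among the interferon-induced GTPases, GBP1 and GBP2 were called in KO and MX1 and MX2 were not. Guanylate-binding proteins attack intracellular pathogens, and MX1 and MX2 block viral nucleocapsids. GBP1 was at 12.6, 12.6, 11.9 and 13.1 CPM in WT normoxia, 7.27, 8.79, 7.18 and 6.66 CPM in hypoxia and 22, 22.1, 20.5 and 21.8 CPM in KO. It had the lowest log2 fold change of the members under hypoxia, -0.76 ± 0.10 (adjusted p = 0.000388), and in KO it rose by 0.78 ± 0.06 (adjusted p = 1.14e-06). GBP2 was at 11.1, 12.5, 12.6 and 12.9 CPM in WT normoxia, 16, 16.2, 14.6 and 15 CPM in hypoxia and 23.8, 25.1, 26.2 and 25.6 CPM in KO. Unlike GBP1 its hypoxia libraries lay above WT normoxia, by 0.32 ± 0.07, short of a call, and its KO change was 1.03 ± 0.07. MX1, often used as a marker of interferon action, changed by 0.15 ± 0.10 in KO with a 95% interval of -0.07 to 0.36. MX2 changed by 0.23 ± 0.15 with an interval of -0.09 to 0.55. For both MX genes the interval holds 0, and a call with a log2 fold change of 0.5 lies inside the interval of MX2 alone.

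The ISG15 system was divided by the size limit. ISG15 was at 95.4, 118, 109.9 and 103 CPM in WT normoxia, 82.8, 120.2, 91.8 and 99.9 CPM in hypoxia and 141, 142, 157 and 142 CPM in KO. The KO libraries were all above WT normoxia, with a change of 0.45 ± 0.06 that was not called (adjusted p = 0.000139). USP18, which removes ISG15 from proteins and dampens receptor signalling, rose in KO from 1.96 ± 0.136 to 3.59 ± 0.132 CPM (SD, n = 4), by 0.87 ± 0.11.

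Of the other antiviral effectors, 5 of 7 tested were called higher in KO. RSAD2 (viperin, which makes a chain-terminating nucleotide) was at 0.117, 0.117, 0.182 and 0.183 CPM in WT normoxia, 0.181, 0.0612, 0.103 and 0.268 CPM in hypoxia and 0.514, 0.789, 0.494 and 0.548 CPM in KO. The level was low in every group, and the KO libraries were still above all WT libraries (log2 fold change of 1.95 ± 0.30 and adjusted p = 0.000333). SAMD9L, a restriction factor paired with SAMD9 on chromosome 7, was at 5.79, 6.08, 4.55 and 4.57 CPM in WT normoxia, 3.25, 3.37, 4.66 and 3.35 CPM in hypoxia and 13, 12.8, 10.3 and 11.8 CPM in KO. It was called in both comparisons, -0.53 ± 0.15 and 1.19 ± 0.12, but the hypoxia and WT normoxia libraries overlapped. The SAMD9L call under hypoxia was lost without library 1 or 2 of WT normoxia (log2 fold change -0.48, adjusted p = 0.0731 and log2 fold change -0.44, adjusted p = 0.0841) and without library 1, 2 or 4 of WT hypoxia (log2 fold change -0.47, adjusted p = 0.0708, log2 fold change -0.49, adjusted p = 0.0408 and log2 fold change -0.48, adjusted p = 0.0768). It was also lost with upper-quartile scaling, the counts divided by 4 or the GC trend removed (the latter 2 chosen after seeing the data), at log2 fold changes of -0.47, -0.49 and -0.36. SAMD9 rose in KO from 16.9 ± 1.88 to 29 ± 2.14 CPM and was at 12.6 ± 1.69 CPM in hypoxia (SD, n = 4), a change of -0.43 ± 0.11 that was not called on size, but was without library 3 of WT hypoxia (-0.52). ISG20, an exonuclease, rose in KO by 0.92 ± 0.12, and its hypoxia change of 0.44 ± 0.12 was called only without library 2 of WT normoxia (0.55) among the alternatives at this size limit. TRIM22, a ubiquitin ligase, was at 0.206, 0.452, 0.522 and 0.523 CPM in WT normoxia, 0.427, 0.331, 0.389 and 0.380 CPM in hypoxia and 0.608, 0.975, 1.09 and 0.731 CPM in KO. Its KO change of 0.99 ± 0.30 had the highest adjusted p of the members called there (0.0265). The TRIM22 change was not called without library 2 of WT normoxia (log2 fold change 1.02, adjusted p = 0.0531), library 2 of KO (log2 fold change 0.92, adjusted p = 0.0625) or library 3 of KO (log2 fold change 0.85, adjusted p = 0.0898), or with no filter on low counts (log2 fold change 0.97, adjusted p = 0.0502). XAF1 was not called, at 1.08 ± 0.44 in KO, but was with limma-voom, with the counts divided by 4 or without library 2 of KO, at log2 fold changes of 1.25, 1.12 and 1.33. BST2 was at 62.8, 76.5, 75.5 and 71.1 CPM in WT normoxia, 81.7, 93.7, 79.5 and 81.4 CPM in hypoxia and 79.9, 87.4, 86.1 and 87.2 CPM in KO, above WT normoxia in all libraries of both groups and below the size limit in both. CMPK2, which lies beside RSAD2 in the genome, had 0, 5, 0 and 4 counts in WT normoxia, 3, 0, 0 and 0 in hypoxia, and 6, 4, 6 and 12 in KO. Scaled to library size, the KO values did not overlap with WT normoxia, at a level close to the floor. The counts before scaling overlapped, and every KO library had a lower sum than every WT normoxia library. The exact permutation test (two-sided) gave p = 0.0286, which is the lowest value possible here. That test adds 0.5 to each count before scaling, so at such counts its p depends partly on library sums. No conclusion is drawn from it.

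The remaining interferon-induced IFI genes included one of the largest KO changes. IFI44L was at 3.21, 2.86, 2.43 and 2.64 CPM in WT normoxia, 1.54, 1.13, 2.18 and 1.85 CPM in hypoxia and 13.1, 10.3, 12.1 and 12.9 CPM in KO. Its groups did not overlap, and the change was -0.73 ± 0.19 under hypoxia (adjusted p = 0.0164) and 2.12 ± 0.11 in KO (adjusted p = 5.16e-08). IFI44, its neighbour on chromosome 1, rose in KO from 34 ± 2.80 to 50.5 ± 3.22 CPM (SD, n = 4), by 0.57 ± 0.07, and its hypoxia change of -0.45 ± 0.11 was called only without library 2 of WT hypoxia (-0.58) among the alternatives at this size limit. IFI27 was at 3.21, 3.16, 3.37 and 2.17 CPM in WT normoxia, 4.81, 4.68, 3.59 and 5.05 CPM in hypoxia and 5.66, 6.25, 7.12 and 7 CPM in KO. It was the member that rose in both comparisons, by 0.60 ± 0.16 and 1.13 ± 0.14. The IFI27 call under hypoxia was lost without library 4 of WT normoxia (log2 fold change 0.48, adjusted p = 0.0389) or of WT hypoxia (log2 fold change 0.54, adjusted p = 0.0584), and that of IFI44L without library 1 of WT normoxia (log2 fold change -0.66, adjusted p = 0.0524) or with the GC trend removed (log2 fold change -0.55, adjusted p = 0.0794). IFI6 and IFI35 were not called, at 0.23 ± 0.09 and 0.41 ± 0.09 in KO.

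Of the 5 transcription regulators, IRF1 was called in KO and IRF9 under hypoxia, and the other 3 in neither. IRF1, a factor that binds ISRE-like sites, rose in KO from 14.8 ± 1.06 to 22.1 ± 0.125 CPM (SD, n = 4), a log2 fold change of 0.58 ± 0.06 and adjusted p = 2.65e-05. IRF9, the DNA-binding subunit of the type I interferon complex, was at 1.60, 1.72, 1.74 and 1.83 CPM in WT normoxia, 3.78, 3.10, 2.51 and 1.98 CPM in hypoxia and 2.05, 1.94, 2.21 and 1.88 CPM in KO. It was called under hypoxia alone (log2 fold change of 0.71 ± 0.19 and adjusted p = 0.0178), with hypoxia libraries that spread widely, was not called without library 1 of WT normoxia (log2 fold change 0.67, adjusted p = 0.0541), and its gene model shares exon bases with a neighbour on the same strand. STAT2, IRF7 and NLRC5 (the class I transactivator) were above WT normoxia in all 4 KO libraries, with changes of 0.26 ± 0.05, 0.32 ± 0.08 and 0.41 ± 0.08 that were below the size limit.

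In the antigen presentation pathway, 3 members were called higher in KO and none under hypoxia. TAPBP, which encodes tapasin, the protein that bridges MHC class I to the peptide transporter, rose from 12.6 ± 1.36 to 22.7 ± 0.627 CPM (SD, n = 4), a log2 fold change of 0.85 ± 0.08 and adjusted p = 6.07e-06. TAP1, a subunit of that transporter, rose from 3.35 ± 0.372 to 5.21 ± 0.152 CPM, by 0.64 ± 0.10. TAP2, the other subunit, was not called and was at 23.4 ± 1.59 CPM in WT normoxia and 21.5 ± 1.56 CPM in KO. HLA-C rose from 3.60 ± 0.478 to 5.83 ± 0.583 CPM, by 0.69 ± 0.12. B2M was at 195, 214.2, 205 and 197 CPM in WT normoxia, 181, 234, 173 and 185 CPM in hypoxia and 257, 262, 249 and 241 CPM in KO. The B2M change in KO was 0.31 ± 0.04, without overlap and below the size limit, and HLA-B was the same in kind at 0.42 ± 0.10. HLA-E changed by 0.00 ± 0.06 in KO with a 95% interval of -0.13 to 0.14. HLA-F, a low gene, changed by 0.82 ± 0.37 under hypoxia (adjusted p = 0.145). The class I genes vary between people and resemble each other, so reads of this line can be lost or assigned to another class I gene.

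The immunoproteasome subunits, which replace constitutive subunits and favour peptides suited to MHC class I, were not called against WT normoxia. PSMB10 was just under the size limit in KO, at 0.49 ± 0.09 (adjusted p = 0.00115), with no overlap. It was called with limma-voom, upper-quartile scaling or the counts divided by 4, and without library 2 or 3 of WT normoxia or library 2 or 4 of KO, at log2 fold changes of 0.50 to 0.54. PSMB8 changed by 0.05 ± 0.18 and PSMB9 by 0.58 ± 0.39, where the PSMB9 libraries of KO ran from 0.350 to 1.81 CPM. PSMB8 and PSMB9 overlap each other on opposite strands, and whether the counting used strand is not given in the sources used here. The heat map of all members by library shows these roles together.

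**Figure D4:**
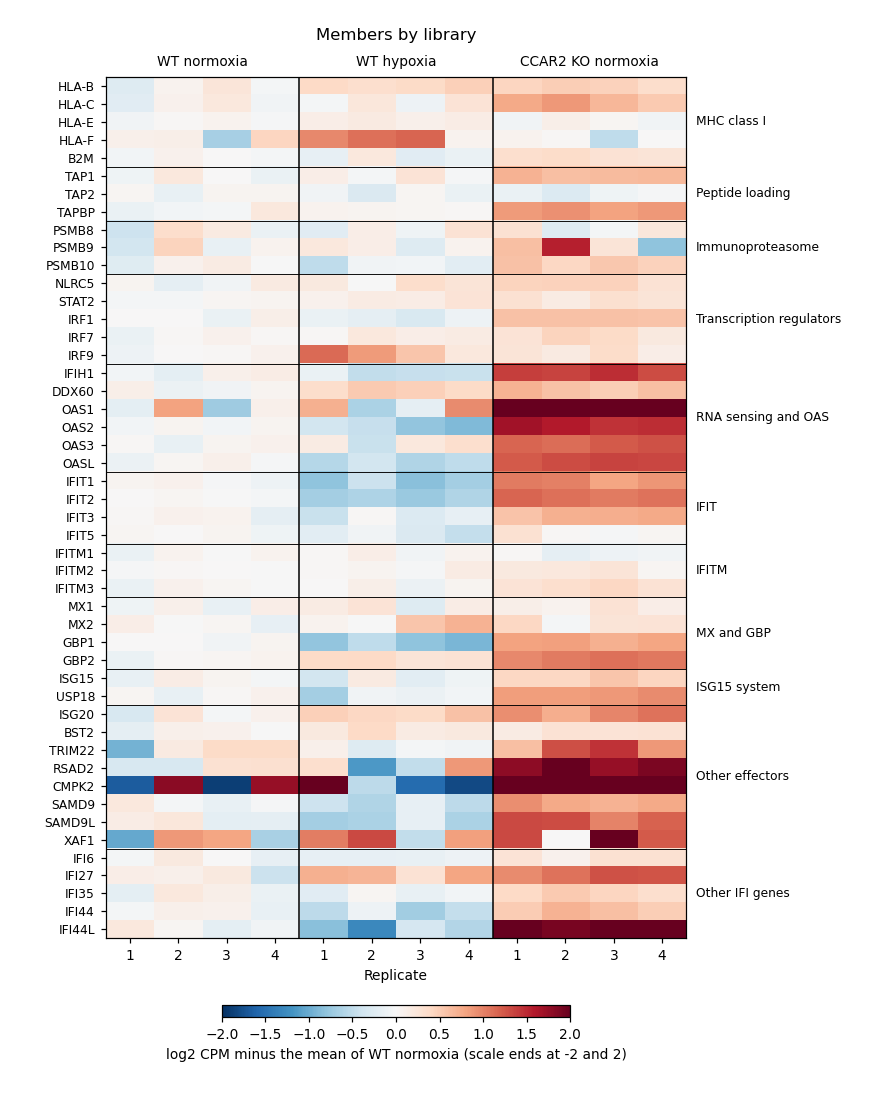
Log2 CPM of the 48 members in the 12 libraries minus the mean of the 4 WT normoxia libraries, on a colour scale that ends at -2 and 2, by role from MHC class I at the top to the IFI genes at the bottom. The KO columns are red for most roles, the hypoxia columns are blue for IFIT1, IFIT2, GBP1 and OASL, and CMPK2, with 0 to 12 counts, shows no steady colour outside KO.

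When CCAR2 KO cells were compared with WT hypoxia directly, 25 of 47 members were called higher in KO and 0 lower, where 7.08% of all 21158 genes tested were called higher and 7.88% lower. DESeq2 and limma-voom also called 0 lower. At an unadjusted p under 0.05, 33 members were higher and 3 lower, beside 20.9% and 22.1% of all genes, and with the adjusted p alone 30 and 0, beside 17.1% and 17.8%. The libraries did not overlap for 30 members upwards and 1 downwards, HLA-F, beside 18.2% and 17.8% of all genes. The median log2 difference was 0.546, beside -0.0171 for all genes. The largest difference was that of IFI44L, 2.83 ± 0.18, followed by OAS1 at 2.48 ± 0.33 and OAS2 at 2.16 ± 0.13. PSMB10, ISG15 and IFI35 were called in this comparison and not against WT normoxia, at 0.70 ± 0.10, 0.56 ± 0.10 and 0.51 ± 0.08. The ISG15 call was lost without library 1 of WT hypoxia (0.48), and that of IFI35 without library 1 or 3 of WT hypoxia or library 2 of KO or with upper-quartile scaling, at log2 differences of 0.47 to 0.50. The IFI27 call was lost without library 3 of WT hypoxia or library 3 or 4 of KO or with upper-quartile scaling, at 0.42 to 0.49. ISG20 was not called but became so without library 4 of WT hypoxia or library 2 of KO or with the GC trend removed, at 0.51 to 0.53. HLA-F had the lowest value, -0.98 ± 0.39, and was not called (adjusted p = 0.0725). Without library 4 of WT hypoxia, HLA-F and IRF9 were called lower in KO.

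Further genes of the pathway were read from a list of 85 symbols, of which 82 are in the table. The rest were second names of DDX58, CGAS and STING1, which are in the table. This list was also chosen with earlier results of these data known. In KO, 20 of 69 tested were called higher and 0 lower (3 lower at an unadjusted p under 0.05 by edgeR), where 6.73% of all genes were called higher and 2.94% lower. DESeq2 and limma-voom called 0 lower as well. Their median log2 fold change was 0.273, with the 0.0090 of all genes as background. Among sensors of nucleic acid, DDX58 (RIG-I) rose from 22.3 ± 7.56 to 50.6 ± 7.92 CPM (SD, n = 4), a log2 fold change of 1.18 ± 0.22 and adjusted p = 0.0013. DHX58, TLR3, STING1 and IKBKE rose by 1.02 ± 0.13, 1.22 ± 0.14, 0.61 ± 0.06 and 0.57 ± 0.08. ERAP1 and ERAP2, which trim peptides in the endoplasmic reticulum, and the tapasin-related TAPBPL rose by 0.53 ± 0.05, 0.63 ± 0.18 and 0.60 ± 0.12. CD74, the invariant chain of MHC class II, rose from 5.87 ± 0.331 to 14.6 ± 0.884 CPM, by 1.31 ± 0.08, and the protease CTSS by 0.52 ± 0.07. Of other interferon-stimulated genes, 10 of 27 were called. APOL1 and APOL6 rose by 1.13 ± 0.09 and 1.01 ± 0.07, EPSTI1, PARP14 and PARP9 by 0.91 ± 0.21, 0.85 ± 0.06 and 0.69 ± 0.08, and TNFSF10 (the death ligand TRAIL), PML, HERC6, DTX3L and LGALS3BP by between 0.50 and 0.65.

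None of the 11 receptors, kinases and SOCS suppressors of their signalling was called in KO. SOCS1 was at 0.50 ± 0.26, just under the size limit (adjusted p = 0.179), and IFNLR1, the receptor chain specific to type III interferon, at 0.49 ± 0.07 (adjusted p = 0.000204). IFNAR1, IFNAR2, IFNGR1 and JAK2 changed by no more than 0.13. The constitutive proteasome subunits PSMB5, PSMB6 and PSMB7, which the immunoproteasome subunits replace, changed by -0.04 ± 0.05, -0.09 ± 0.07 and -0.16 ± 0.04. Of 8 interferon genes on the list, which held no interferon alpha gene, 7 were listed at 0 in all 12 libraries. IFNL1 had 8, 21, 10 and 0 counts in WT normoxia and 0 in each hypoxia and KO library. Under hypoxia 1 of 68 tested genes was called higher, TNFSF10 at 1.09 ± 0.10, and 2 lower, JAK2 at -0.55 ± 0.10 and TLR3 at -0.70 ± 0.21. Of all genes, 5.83% were called higher and 1.43% lower. The median of these 68 was -0.122, beside 0.0113 for all genes. Groups did not overlap for 4 of them upwards and 19 downwards, beside 13.7% and 12.7% of all genes. Against hypoxia, 23 of 68 were called higher in KO and 0 lower, beside 7.08% and 7.88% of all genes, with 1 lower at an unadjusted p under 0.05 by edgeR and 0 called lower by DESeq2 or limma-voom.

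**Figure D5:**
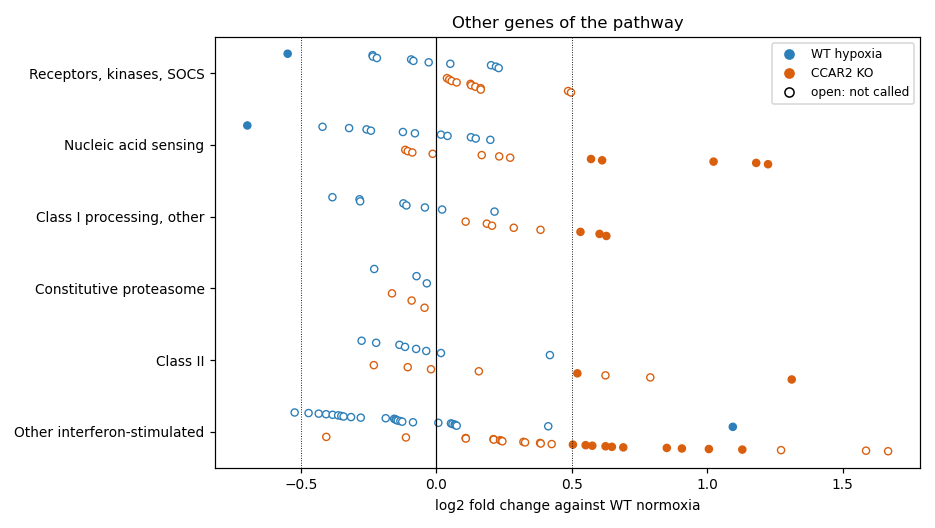
Log2 fold change against WT normoxia of the other pathway genes tested, 1 point per gene in rows by list, for WT hypoxia (blue) and CCAR2 KO cells (orange), with filled points for called genes and dotted lines at -0.5 and 0.5. The called genes in KO lie in the rows of sensing, class I processing, class II and other interferon-stimulated genes, and none in those of receptors or constitutive proteasome.

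Markers of other cells were read beside the KO result. The 7 leukocyte markers summed to 0.876 to 1.11 CPM in WT normoxia, 0.991 to 1.34 in hypoxia and 1.17 to 1.66 in KO, with CD3E at 0 in all WT normoxia and KO libraries and CD14 called higher in KO (0.67 ± 0.21). PTPRC, the marker of all leukocytes, was at 0.172 to 0.236 CPM in WT normoxia and 0 to 0.0974 CPM in KO, lower without overlap and not called (-1.59 ± 0.57, adjusted p = 0.0523). The 6 fibroblast and endothelial markers summed to 3.11 to 4.48 CPM in WT normoxia, 4.32 to 5.95 in hypoxia and 6.31 to 7.30 in KO. DCN was at 0 in all KO libraries, and PECAM1 and PDGFRB were called higher in KO, at 1.11 ± 0.14 and 0.62 ± 0.22. The endothelial markers VWF and CDH5 were lower on average in KO, at 0.169 against 0.326 CPM and 0.0157 against 0.0617 CPM, with groups that overlapped, and VWF was not called (-0.94 ± 0.38) while CDH5 was too low to be tested. The part of these genes in the members' result was not tested.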

How the data were processed

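RNA-seq libraries of MDA-MB-231 cells were put in groups from their labels. According to the methods, Hisat2 aligned the reads and StringTie estimated gene abundance, whereas the submitters' processing notes name HISAT2, SAMtools and featureCounts. The genome build and the annotation are not given in the sources used here. The labels name Trizol and a TruSeq kit, and the methods name other reagents. The values deposited by the authors are expected counts per gene, whole numbers estimated from coverage without scaling for depth. In each library more genes stood at 4 than at 3 or 5, so the sums are not numbers of reads.

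The whole table of 60664 genes was filtered and fitted on the 8 libraries of each comparison with edgeR 4.0.16 in R 4.3.3 (TMM, filterByExpr, glmQLFit, glmQLFTest, Benjamini-Hochberg adjustment). A gene was called where the adjusted p was under 0.05 and the log2 fold change 0.5 or more in size. CPM were scaled by TMM. Standard errors are the log2 fold change divided by the square root of F, and intervals are 95%. The test was checked on simulated data for hypoxia against WT normoxia alone, with the spread between libraries estimated from these data. The KO comparisons were not simulated. DESeq2 1.42.0 and limma 3.58.1 were alternatives, as were other scalings, filters and call rules, all libraries in 1 fit, a replicate block and each library left out. Dividing the counts by 4 and removing a GC trend were chosen after seeing the data. Exon lengths are from GENCODE v29, and promoters from RefSeq.

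The members and lists were chosen with earlier results of these data known. All members could be named, with the value in each library for those called (up to 12 per comparison, averaging 20 counts or more) and the 5 highest in WT normoxia. Other pathway genes were named where called against WT normoxia, with the constitutive proteasome subunits and the receptors. The replicate numbers were not used to pair the libraries in the main fits, and no replicate pair had identical values. Their chi-square per degree of freedom was between 14.0 and 98.4.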

Additional observations from a re-analysis of the deposited data

Results flagged for a closer look

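In groups of 4 libraries, 10 of the 144 gene and group combinations held 1 library whose gap to its nearest neighbour as a ratio to the range, exceeded Dixon's 95% limit, and chance alone gives about 7.20. HLA-F in library 3 of KO was low (0.110 CPM, others 0.158 to 0.166, ratio 0.846), as was TAP2 in library 2 of WT normoxia (21.1 CPM, others 24.0 to 24.4, ratio 0.881). NLRC5 in library 4 of KO was low (15.8 CPM, others 17.7 to 17.9, ratio 0.902), and so was IFI6 in library 2 of KO (9.20 CPM, others 10.5 to 10.7, ratio 0.862). ISG15 in library 3 of KO was high (157 CPM, others 141 to 142, ratio 0.937).

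In WT hypoxia, library 1 was high for IFIH1 (3.13 CPM, others 2.44 to 2.52, ratio 0.877) and low for USP18 (1.22 CPM, others 1.81 to 1.88, ratio 0.890). BST2 was high in library 2 (93.7 CPM, others 79.5 to 81.7, ratio 0.845) and SAMD9L in library 3 (4.66 CPM, others 3.25 to 3.37, ratio 0.916). CMPK2 was above 0 in library 1 alone (ratio 1.000), with 3 counts.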

How the results depend on the processing

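No call of a member changed direction under any alternative. Of the members called, 4 of 9 under hypoxia, 23 of 24 in KO and 22 of 25 in KO against hypoxia kept their call in every alternative that did not change the call rule and in which they were tested. OAS1 and RSAD2 in KO against hypoxia were not tested with at least 10 counts in every library. With the adjusted p alone, 7 members were higher and 11 lower under hypoxia, and of the other pathway genes 2 were higher and 20 lower under hypoxia, 39 higher and 2 lower in KO, and 42 higher and 1 lower in KO against hypoxia. The shares of all genes at this rule were 11.6% higher and 12% lower under hypoxia and 14.9% and 15.4% in KO. In KO against hypoxia they were 17.1% and 17.8%. With a log2 fold change of 1 or more in size, 0 members were higher and 0 lower under hypoxia, 11 were higher in KO and 15 in KO against hypoxia, and of the other pathway genes 0 were lower under hypoxia, 6 higher in KO and 7 higher in KO against hypoxia. Shares over all genes were not counted at this size limit. With upper-quartile scaling, 192 of all genes were lower under hypoxia, where the main result had 312. With upper-quartile scaling or the GC trend removed, 0 other pathway genes were lower under hypoxia. With the GC trend removed 1 was lower in KO against hypoxia, and with no filter 1 was lower in KO. With at least 10 counts in every library, 1 member, HLA-F, was lower in KO against hypoxia. Leaving out 1 library gave 1 to 3 members higher and 5 to 7 lower under hypoxia, 23 to 25 higher and 0 to 0 lower in KO, and 23 to 26 higher and 0 to 2 lower in KO against hypoxia. For the other pathway genes it gave 1 to 1 higher and 0 to 3 lower under hypoxia, 17 to 20 higher and 0 to 0 lower in KO, and 22 to 24 higher and 0 to 1 lower in KO against hypoxia. Of all genes, it gave 1046 to 1445 higher and 236 to 398 lower under hypoxia. In KO it gave 1291 to 1461 higher and 557 to 672 lower, and in KO against hypoxia 1377 to 1555 and 1465 to 1704. Between 21665 and 22616 genes were tested in these fits. Without library 2 of WT hypoxia, 2 members were higher and 7 lower under hypoxia. The causes were not tested. Low members such as OAS1, RSAD2, HLA-F and CMPK2 rest on few counts.

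The replicate numbers shared between groups were not treated as pairs in the main fits. After removing group means, same-numbered libraries correlated with WT normoxia between -0.0174 and 0.0451. Libraries of different number were not correlated in this way, so whether the numbers mark pairs was not tested. With the replicate block, 2 members were higher and 7 lower under hypoxia, 24 higher and 0 lower in KO, and 25 higher and 0 lower in KO against hypoxia, so the block changed no count of members. Of all 21776 genes tested under hypoxia, the block called 1183 higher and 324 lower. It called 1393 and 603 of 21410 in KO, and 1478 and 1613 of 21158 in KO against hypoxia.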
